A study of Mus musculus with 416 samples.

Results

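Ependyma-rich and ependyma-poor striatum libraries were told apart by Tmem212, a transmembrane protein gene known as a marker of ependymal cells in mouse brain. Levels are in CPM, a gene's count relative to the library's total. Of 416 libraries, 49 held at least 100 CPM of Ttr, the transthyretin gene that the choroid plexus transcribes very strongly, and were left out. Within each generation label, the 1 in 4 libraries with the most Tmem212 were taken as rich and the 1 in 4 with the least as poor. This gave 90 rich and 90 poor libraries, and the rest, 94 labelled female and 93 male, are called middle libraries and belong to neither set. The rich libraries comprised 32 of generation 21, 26 of generation 22 and 32 of generation 23, with 42 labelled female and 48 male. The poor libraries had the same numbers per generation, with 45 labelled female and 45 male. All were total RNA of striatum from drug-naïve J:DO mice, a Diversity Outbred population bred from several inbred founder strains to vary widely in genotype. No library was treated, and the labels give no age. The striatum was cut from hemisected brain under a dissection scope, and the labels give each library its own number without saying in words that each came from a separate mouse, so the p-values measure the spread between libraries.

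Ependymal cells line the ventricles of the brain and carry tufts of motile cilia whose beat moves cerebrospinal fluid. The core of a motile cilium, the axoneme, is a ring of doublet microtubules around a central pair; dynein arms on the doublets slide them past each other, radial spokes and nexin links shape the bend, and intraflagellar transport carries building blocks from the cell body. Primary cilia, which neurons and astrocytes carry, lack dynein arms and central pair but are built by the same transport. The lateral wall of the lateral ventricle lies against the striatum, and just beneath it the subventricular zone holds neural stem cells, dividing progenitors and neuroblasts that migrate to the olfactory bulb.

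The libraries were selected on Tmem212 and Ttr CPM, so these values are a description only. Tmem212 ranged from 1.65 to 4.74 CPM with a median of 2.52 in the rich libraries, against 0 to 1.34 CPM with a median of 0.809 in the poor libraries. The limits differed between generations. In generation 21 the lowest rich library had 2.67 CPM and the library just below it 2.65 CPM, while the highest poor library had 1.34 CPM and the library just above it 1.38 CPM. In generation 23 the same limits lay at 1.65 and 1.64 CPM and at 0.991 and 0.998 CPM. The rich libraries had 28456099 to 66111740 counts with a median of 41971064, and the poor libraries 30277724 to 70831399 with a median of 43825551. Mitochondrially encoded genes took a median of 4.52% of counts in rich and 4.70% in poor libraries, and Ttr had medians of 7.70 CPM in rich and 6.24 CPM in poor libraries. The Ttr medians in rich and poor libraries were 15.1 and 6.94 CPM in generation 21. They were 6.87 and 6.55 CPM in generation 22, and 5.96 and 4.59 CPM in generation 23.

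A few libraries stood apart. By Xist against a limit of 100 CPM, 5 rich and 7 poor libraries (29 of all 416) did not match their labelled sex. A low correlation with the other libraries set 4 rich and 7 poor libraries apart. The most extreme of these, female replicate 34 of generation 21, was a poor library with 1.55 CPM of Drd1, the D1 dopamine receptor of spiny projection neurons, where the next lowest library had 61.7 CPM and every rich library at least 142.5 CPM. It also had the highest Prkcd, a gene of thalamic relay neurons, at 1375 CPM against 539 CPM in the next library.

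Outside the 2 genes used to choose libraries, 21344 genes were tested with edgeR's quasi-likelihood test with labelled sex and generation in the model. At an adjusted p under 0.05, 2118 genes (9.92% of those tested) were higher in the rich libraries and 2261 genes (10.6%) were lower. Most of these differences were small: the median size among called genes was 0.144 on the log2 scale. A difference over 1.5-fold was found for 13.3% of the higher and 4.11% of the lower genes, and over 2-fold for 46 of the higher genes. Levels of single genes in rich and poor libraries below are CPM scaled by edgeR's TMM factors. Sums over a gene list are CPM without these factors. Every difference is the log2 of rich over poor with its standard error. In bulk RNA, fewer cells of a type and less RNA per cell cannot be told apart.

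Genes that build the motile axoneme were higher in the rich libraries across nearly all of their structural classes. The 7 axoneme lists (outer and inner dynein arms, dynein arm assembly, nexin links and ruler, radial spokes, central pair, doublet proteins) held 97 genes with enough counts to be tested and 4 without. Of the 97, 83 were higher, none was lower, and the median difference was 0.50, against 9.92% of all genes called higher and a median over all tested genes of -0.0032. They lie on 19 chromosomes. For 12 of them every one of the 90 rich libraries lay above the median of the poor libraries, and for 46 at least 81 of 90 did. Among the 97, the 48 genes with the lowest mean levels had a median difference of 0.65 with 44 higher, and the 49 with the highest mean levels a median of 0.28 with 39 higher. With scores of cortical, thalamic, choroid plexus, oligodendrocyte, fibroblast and septal markers in the model, 82 of the 97 were higher (8.06% of all genes were), with a median of 0.40.

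**Figure D1:**
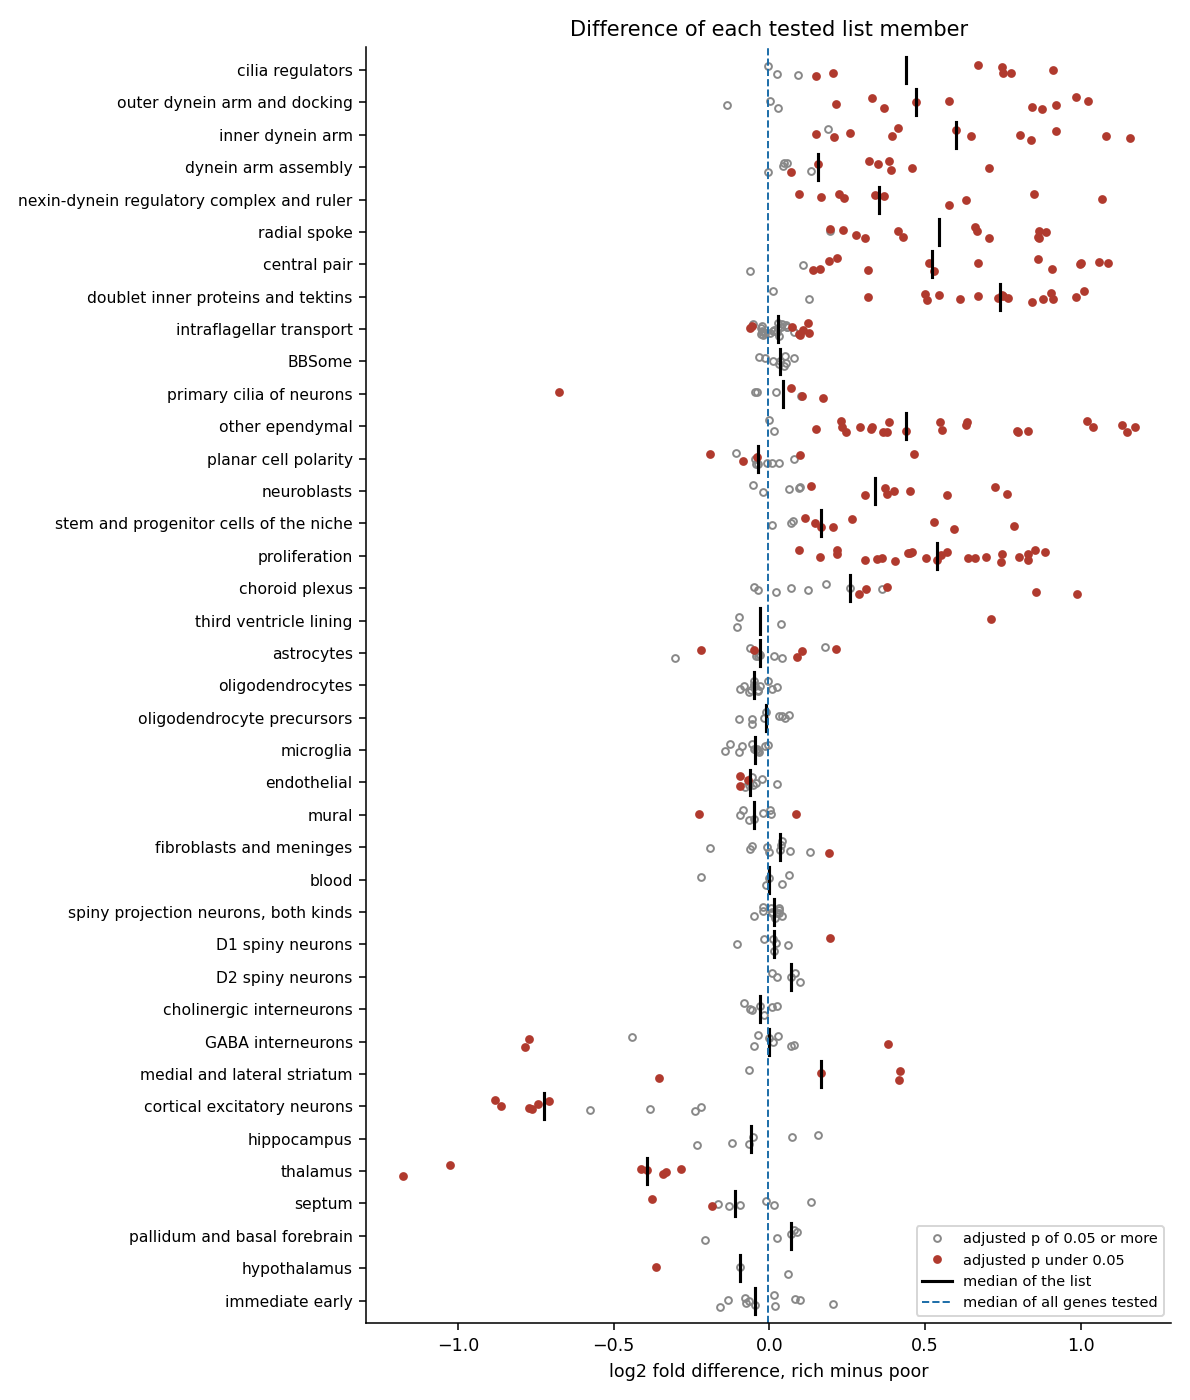
Difference between rich and poor libraries (x axis, log2 fold, rich minus poor) of each tested member of the gene lists (rows). Filled red points had an adjusted p under 0.05, open points did not, black bars are list medians and the dashed line is the median of all tested genes. The axoneme, other ependymal, neuroblast and proliferation lists sit to the right of the line, intraflagellar transport and the BBSome on it, and cortical and thalamic lists to its left.

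Foxj1, the transcription factor that switches on the motile cilia programme, ranged from 4.82 to 13.4 CPM (median 7.91) in rich libraries and from 1.42 to 9.27 CPM (median 4.92) in poor libraries. The ranges overlapped, but 89 of 90 rich libraries exceeded the poor median, and the difference was 0.75 ± 0.06 (edgeR adjusted p = 5.89e-25). Of 12 regulators of multiciliated cells, 10 were tested and 7 were higher. These included Myb at 0.78 ± 0.08, Trp73 at 0.67 ± 0.09, Gmnc (geminin coiled-coil protein, an early switch of the multiciliated fate) at 0.75 ± 0.12 and Deup1, a scaffold of the deuterosomes on which centrioles are multiplied, at 0.91 ± 0.13. Deup1 was scarce, with medians of 0.306 CPM in rich and 0.156 CPM in poor libraries. Rfx3 and Rfx2, which bind the X-box in promoters of cilia genes, were higher by only 0.15 ± 0.03 and 0.21 ± 0.05. Rfx3 had 105.1 to 198.2 CPM in rich and 32.1 to 179.4 CPM in poor libraries, and Rfx1 gave 0.02 ± 0.02 without passing the test. Mcidas and Ccno, which act while multiciliated cells form, gave 0.00 ± 0.10 and 0.09 ± 0.10, neither past the threshold.

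Dynein heavy chains, the motors of the beat, were higher in most members. Dnah5 of the outer arm had 7.90 to 29.6 CPM (median 12.0) in rich libraries and 1.52 to 12.3 CPM (median 7.07) in poor libraries, a difference of 0.84 ± 0.06. All 90 rich libraries were above the poor median. Of 13 tested outer arm and docking genes, 10 were higher, with Dnah9 at 0.88 ± 0.07, Dnah11 at 0.98 ± 0.08, the light chain gene Dynlrb2 at 1.02 ± 0.09 and the intermediate chain Dnaic1 at 0.37 ± 0.04. Those that did not pass were Dnah8 and Dnah17, heavy chains known mainly from sperm, at -0.14 ± 0.11 and 0.03 ± 0.04, and Dnal1, at 0.00 ± 0.02 with 74.8 to 125.1 CPM in rich and 62.9 to 118.4 CPM in poor libraries.

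Inner dynein arm genes rose in 12 of 13 tested members, with a median of 0.60. Dnah12 had 5.67 to 17.8 CPM (median 10.8) in rich libraries, against 0.196 to 9.71 CPM (median 5.53) in poor libraries. Its difference was 1.08 ± 0.09 (edgeR adjusted p = 1.3e-23), with all 90 rich libraries above the poor median. Wdr63, an intermediate chain of the inner arm, had the largest difference of any axoneme gene, 1.16 ± 0.11, and Dnah3, Dnah10 and the light chain Dnali1 gave 0.84, 0.92 and 0.81. Dnah7a, Dnah7b and Dnah7c gave 0.60, 0.21 and 0.26, but they are near-identical copies among which the counting could split reads. Dnah6 stood out by its spread: it ran from 13.1 to 178.1 CPM in rich and from 0.930 to 215.5 CPM in poor libraries, and its 0.19 ± 0.15 did not pass. Of 13 tested dynein assembly factors, 8 were higher, led by Dnaaf3 at 0.71 ± 0.07, Dnaaf1 at 0.46 ± 0.06 and Zmynd10 at 0.35 ± 0.05. The chaperone ATPases Ruvbl1 and Ruvbl2, which also serve other complexes, gave 0.05 ± 0.02 and 0.07 ± 0.02, of which only Ruvbl2 passed.

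**Figure D2:**
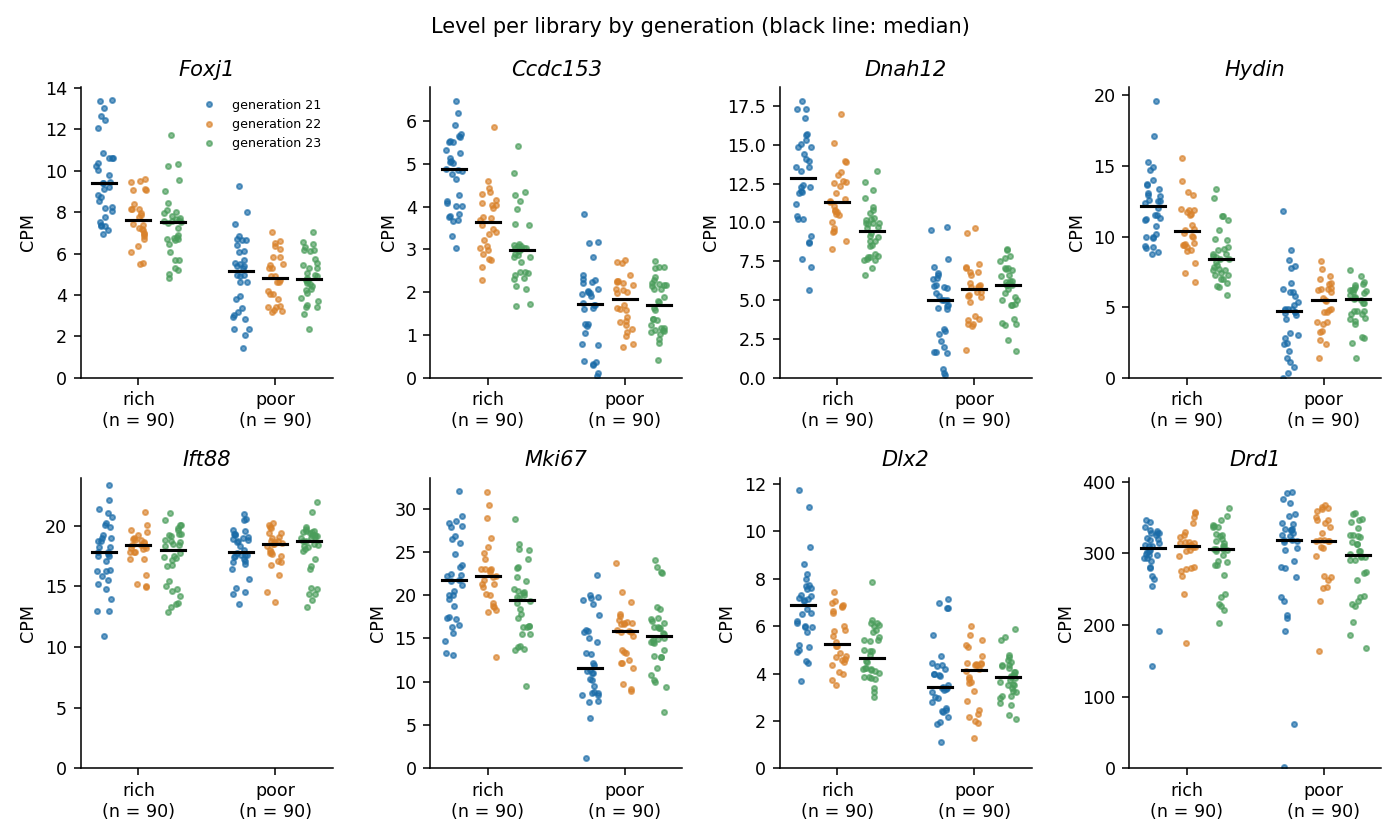
Level per library (CPM, TMM-scaled) of Foxj1, Ccdc153, Dnah12, Hydin, Ift88, Mki67, Dlx2 and Drd1 in the 90 rich and 90 poor libraries, coloured by generation, with black lines at the medians. The first 4 genes, Mki67 and Dlx2 sit higher in rich libraries with overlapping ranges, widest apart in generation 21, and Ift88 and Drd1 sit at like levels except for a poor library with Drd1 near 0.

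The links, spokes and central pair followed. All 10 nexin and ruler genes were higher, Drc7 by 1.07 ± 0.08 and Iqcg by 0.58 ± 0.04, while the molecular ruler gene Ccdc40 gave 0.63 ± 0.05 and its partner Ccdc39 0.17 ± 0.04. Of 14 radial spoke genes 13 were higher, with Rsph4a of the spoke head at 0.86 ± 0.07 and Cfap206 of the spoke base at 0.87 ± 0.08. Rsph1, another spoke head gene, varied widely within both groups, from 2.32 to 26.2 CPM (median 8.48) in rich and from 0.951 to 14.0 CPM (median 4.15) in poor libraries, and gave 0.71 ± 0.13. Hydin, a giant central pair protein, had 5.86 to 19.6 CPM (median 10.01) in rich libraries and 0 to 11.8 CPM (median 5.01) in poor libraries, a difference of 1.06 ± 0.09. A single poor library, male replicate 55 of generation 21, had no Hydin count. Spag17, Ak7 and Spag16 of the central pair gave 1.088, 0.998 and 1.002, and 14 of the 16 genes were higher. The 2 exceptions were Cfap69 at 0.11 ± 0.05 and Spag6 at -0.06 ± 0.10, where Spag6 is a near-identical copy of Spag6l, which gave 0.51 ± 0.06.

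The list of doublet proteins showed the highest list median, 0.74, with 16 of 18 tested members higher. Cfap43 had 4.15 to 10.3 CPM (median 6.91) in rich libraries, against 0.951 to 7.88 CPM (median 3.62) in poor libraries, a difference of 0.91 ± 0.06 (edgeR adjusted p = 1.32e-26). Cfap77 gave 1.01 ± 0.10, Cfap52 0.98 ± 0.08, Enkur 0.88 ± 0.07 and Tekt1 0.75 ± 0.07. Summed over the list, the doublet genes had 37.2 to 84.1 CPM (median 53.8) in rich libraries, a median of 44.9 CPM in middle libraries and 10.3 to 50.3 CPM (median 33.8) in poor libraries. Tekt2 and Efhc2 gave 0.13 ± 0.08 and 0.01 ± 0.04 and did not pass.

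Intraflagellar transport, which motile and primary cilia share, did not move in this way. Its 29 genes had a median difference of 0.03, with 6 higher (9.92% of all genes were) and 2 lower (10.6% of all genes were), and 20.5% of all genes were called in either direction. The largest, Dync2li1 and Ttc30b, gave 0.13 ± 0.03 and 0.12 ± 0.02. Ift88, a core transport protein, had 10.9 to 23.3 CPM (median 18.2) in rich and 13.3 to 21.9 CPM (median 18.5) in poor libraries. The kinesin subunits Kif3b and Kifap3 were lower by 0.06 ± 0.02 each on the log2 scale. Summed, the list gave 887 to 1218 CPM (median 1046) in rich and 869 to 1146 CPM (median 1023) in poor libraries. None of 9 BBSome genes passed, the complex that sorts membrane proteins of cilia. Of 8 genes of neuronal primary cilia, 3 were higher and 1 lower: the somatostatin receptor Sstr3 gave -0.67 ± 0.20, and adenylyl cyclase Adcy3 gave -0.05 ± 0.03 without passing. Without the libraries apart 3 were higher and 3 lower, with Adcy3 among the lower ones at -0.07.

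Promoter sequence was read for the same genes from 300-base RefSeq windows (GRCm38.p6), which run from 250 bases before to 50 after a transcript's start. The X-box is the motif known for RFX factors, and was searched on both strands as GTNNCC and GNNAC with any 3 bases between them. It was found in 31.2% of 93 windows of axoneme genes, in 20.8% of 24 windows of the other ependymal genes and in 23.5% of 34 windows of transport and BBSome genes, against 4.62% of all 32851 windows. The stretches below show the match in capitals, for 6 axoneme genes that were higher and, to set beside them, for Wdr19 and Ift57 of the transport complexes, which gave 0.04 ± 0.02 and -0.02 ± 0.02 and did not pass. A match describes the letters of the window, not binding.
Hydin (chr8:110266936-110266976, plus strand): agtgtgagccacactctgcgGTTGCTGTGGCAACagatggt
Cfap77 (chr2:29055269-29055316, minus strand): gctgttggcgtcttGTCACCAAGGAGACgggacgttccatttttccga
Spag16 (chr1:69826847-69826900, plus strand): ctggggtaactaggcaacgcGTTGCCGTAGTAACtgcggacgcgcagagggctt
Cfap206 (chr4:34730207-34730249, minus strand): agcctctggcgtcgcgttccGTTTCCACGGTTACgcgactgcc
Iqca (chr1:90153503-90153556, minus strand): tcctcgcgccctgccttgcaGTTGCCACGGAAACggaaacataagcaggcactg
Cfap44 (chr16:44394752-44394798, plus strand): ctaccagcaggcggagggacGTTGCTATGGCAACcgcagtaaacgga
Wdr19 (chr5:65199642-65199695, plus strand): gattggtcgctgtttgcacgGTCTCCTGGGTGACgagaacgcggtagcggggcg
Ift57 (chr16:49699222-49699275, plus strand): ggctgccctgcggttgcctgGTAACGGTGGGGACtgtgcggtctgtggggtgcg

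Other genes of the ependymal cell went the same way. Of 25 such genes, none of which chose the libraries, 23 were higher, with a median of 0.44. Ccdc153, a coiled-coil gene often used as an ependymal marker, had 1.67 to 6.47 CPM (median 3.74) in rich libraries and 0.0413 to 3.83 CPM (median 1.73) in poor libraries, a difference of 1.15 ± 0.09 (edgeR adjusted p = 1.47e-23). Sntn, which codes for a protein at the cilium tip, gave 1.17 ± 0.17. Beyond cilia proteins the list holds Hdc, the histamine-forming enzyme, at 0.80 ± 0.07, the secreted chemerin gene Rarres2 at 0.56 ± 0.05, Mia at 0.83 ± 0.09, the intermediate filament Vim at 0.33 ± 0.04 and Dbi, the acyl-CoA binding protein, at 0.29 ± 0.04. The 2 members that did not pass, Prom1 and S100b, gave 0.02 ± 0.04 and 0.00 ± 0.08. Both are transcribed in other cells of the brain as well. Planar polarity genes, which align the cilia of neighbouring cells, moved in both directions, with 2 higher and 3 lower of 13 (20.5% of all genes were called), and 3 higher and 4 lower without the libraries apart. Celsr1 had 8.84 to 32.6 CPM (median 19.3) in rich and 1.22 to 21.98 CPM (median 13.8) in poor libraries. Its difference was 0.46 ± 0.05, while its paralogue Celsr2 gave -0.08 ± 0.02.

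The 30 genes with the largest differences higher in the rich libraries were taken among called genes whose log2 CPM averaged 0 or more, with one sign in all 3 generations and a symbol that is not a Gm, Rik or accession name. Of these 30, 13 belonged to one of these lists; scarcer genes with differences as large, such as Sntn and Dynlrb2, are not among them. Others were Spata18 at 1.15 ± 0.09, Ccdc180 at 1.13 ± 0.09, the rootletin-like gene Crocc2 at 1.12 ± 0.09, the cadherin-related genes Cdhr4 and Cdhr3 at 1.08 ± 0.09 and 1.07 ± 0.09, and Ttc21a at 1.05 ± 0.08. Crocc2 had 1.26 to 6.14 CPM in rich libraries, all above the poor median of 1.19 CPM. Some of these 30 are known for roles outside cilia: Lbp, which binds lipopolysaccharide, at 1.02 ± 0.14, the collagen gene Col6a5 at 1.003 ± 0.157 and complement C3 at 0.90 ± 0.23. Their levels scattered more: Col6a5 ran from 0.792 to 29.2 CPM in rich and from 0.227 to 10.7 CPM in poor libraries.

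In the middle libraries, which belong to neither set, each gene's slope on Tmem212 was tested. Over these libraries 784 of 22100 genes (3.55%) changed with log2 Tmem212 level, 2.11% upwards and 1.43% downwards. Of the 97 axoneme genes 46 rose with Tmem212 and none fell, with a median slope of 0.44 per log2 unit. Foxj1 had a slope of 0.52, Dnah12 of 0.90, Hydin of 0.83 and Ccdc153 of 0.95. The genes called higher in both made up 17.1% of those higher in the rich libraries and 77.7% of those that rose in the middle libraries. The genes called lower in both made up 9.02% of those lower in the rich libraries and 64.4% of those that fell in the middle libraries. No gene was called higher in one and lower in the other among the 2118, and 2 of the lower genes rose in the middle libraries.

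**Figure D3:**
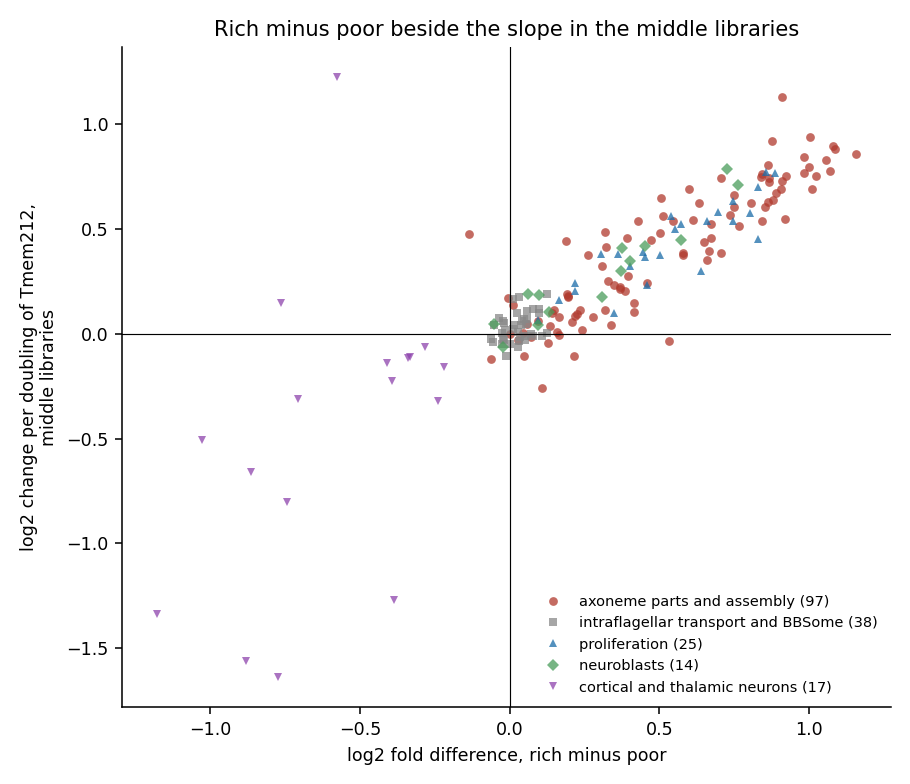
Rich minus poor difference (x axis, log2 fold) beside the slope on Tmem212 in the middle libraries (y axis, log2 change per log2 unit of Tmem212) for axoneme, transport and BBSome, proliferation, neuroblast, and cortical and thalamic genes. Axoneme, proliferation and neuroblast genes spread along a rising diagonal up to 1.16 on the x axis, transport genes crowd at 0, and cortical and thalamic genes scatter at the lower left.

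Genes of the subventricular zone were higher too. Of 14 tested neuroblast genes 9 were higher, with a median of 0.34. Dlx2, a homeobox gene of the interneuron lineage, had 3.01 to 11.7 CPM (median 5.56) in rich libraries and 1.11 to 7.14 CPM (median 3.83) in poor libraries, a difference of 0.57 ± 0.06 (edgeR adjusted p = 9.32e-14). Igfbpl1 and Sp8 gave 0.76 ± 0.09 and 0.73 ± 0.09, Sox11 0.37 ± 0.04 and the microtubule gene Dcx 0.31 ± 0.05. Cd24a, at 0.38 ± 0.04, stands in both the neuroblast and the ependymal list. Dlx5 and Dlx6, which spiny neurons also transcribe, gave 0.09 ± 0.04 and 0.06 ± 0.04 and did not pass. Without the libraries apart 9 were higher and Robo2, a receptor of migrating neuroblasts, was lower at -0.08, against -0.05 with all libraries. Of 11 tested stem and progenitor genes 8 were higher, among them Gsx2 at 0.79 ± 0.12 and Egfr at 0.20 ± 0.03. Thbs4, a secreted protein gene of niche astrocytes, ran from 4.75 to 88.6 CPM (median 19.8) in rich and from 1.01 to 74.3 CPM (median 12.3) in poor libraries and gave 0.59 ± 0.14, while its slope in the middle libraries, -0.08, did not pass.

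All 25 proliferation genes were higher, with a median of 0.54. Mki67, a protein of dividing nuclei, had 9.47 to 32.01 CPM (median 20.9) in rich libraries and 1.22 to 24.1 CPM (median 14.9) in poor libraries, a difference of 0.55 ± 0.06 (edgeR adjusted p = 1.55e-13), with 81 of 90 rich libraries above the poor median. The kinase Cdk1 gave 0.85 ± 0.11, the checkpoint kinase Bub1 0.88 ± 0.11, Top2a 0.83 ± 0.10 and the nucleotide reductase subunit Rrm2 0.75 ± 0.08. Replication genes with wider use differed less, Mcm2 by 0.36 ± 0.04 and Pcna by 0.09 ± 0.02. Summed, the list had 81.4 to 176.9 CPM (median 123.4) in rich, a median of 106.6 CPM in middle and 55.3 to 127.6 CPM (median 91.1) in poor libraries. In the middle libraries 15 of the 25 rose with Tmem212. With a score of the neuroblast list in the model, 4 of the 25 proliferation genes stayed higher (3.27% of all genes did), and 68 of the 97 axoneme genes, with a median of 0.32. The same fit gave Foxj1 0.52 and Mki67 0.07 in difference. Whether the gene groups differ in this was not tested.

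The promoters of the proliferation genes were searched for other motifs as well. The CHR element, written TTTGAA, is a motif known from promoters of cell cycle genes. It was found on either strand in 59.1% of 22 windows, against 17.9% of all windows and 11.8% of the axoneme windows. The CCAAT box was found in 90.9% of proliferation windows, 38.7% of axoneme windows and 37.4% of all. It was also found in 62.5% of the other ependymal, 61.8% of the transport and BBSome and 62.5% of the neuroblast windows. The X-box was found in 4.55% of the proliferation windows. The CHR match is in capitals in these stretches, where TTCAAA is the element read from the other strand.
Cdk1 (chr10:69352913-69352947, minus strand): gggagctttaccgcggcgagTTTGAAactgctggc
Top2a (chr11:99024190-99024232, minus strand): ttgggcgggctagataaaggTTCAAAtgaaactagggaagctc
Ube2c (chr2:164769880-164769925, plus strand): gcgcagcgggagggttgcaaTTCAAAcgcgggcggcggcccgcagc
Kif11 (chr19:37376343-37376381, plus strand): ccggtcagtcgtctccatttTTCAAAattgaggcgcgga

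**Figure D4:**
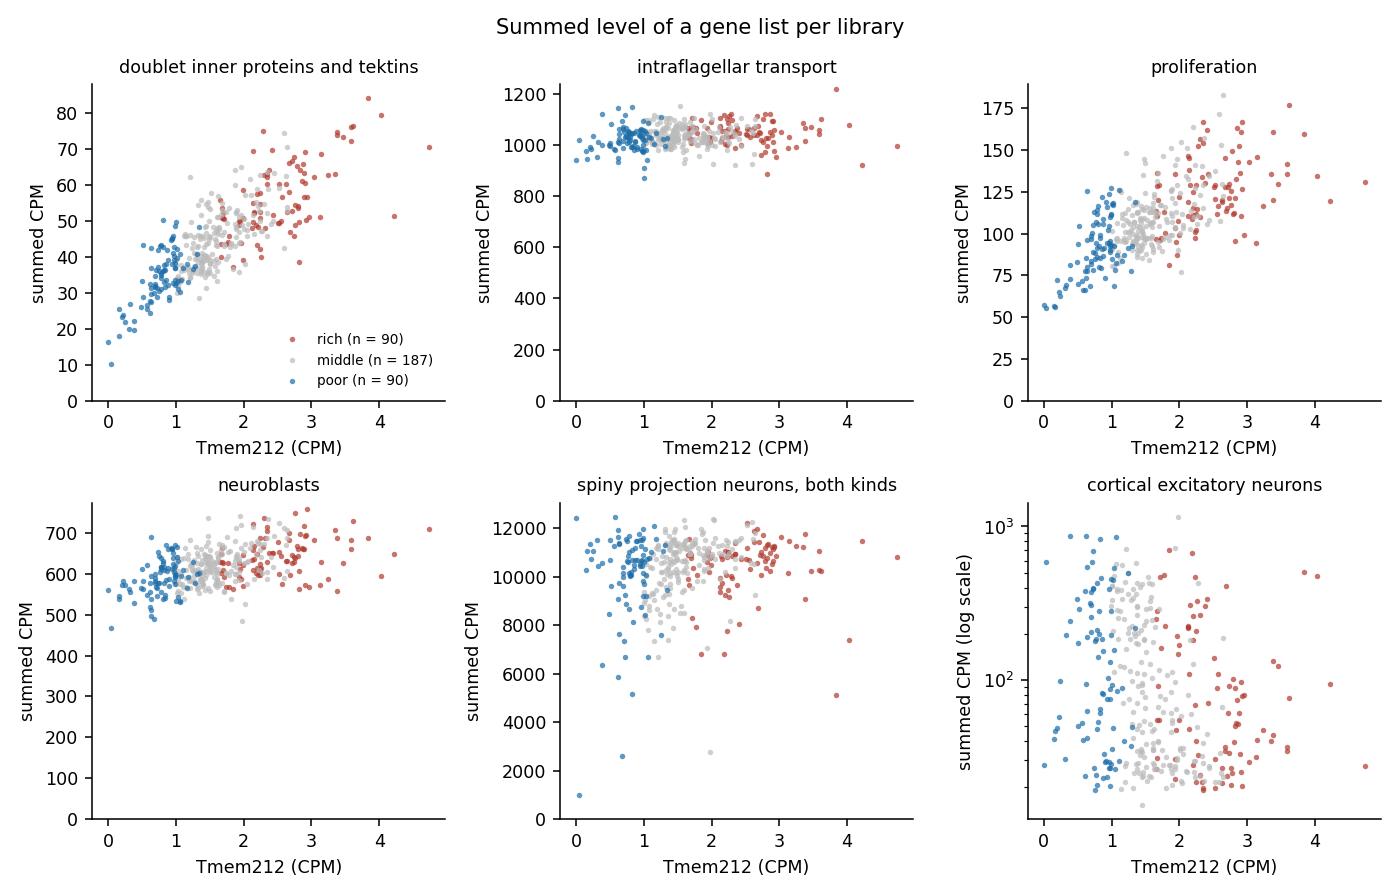
Summed CPM of 6 gene lists (y axes, the cortical one on a log scale) against Tmem212 CPM (x axes) in rich, middle and poor libraries. Doublet and proliferation sums climb with Tmem212 through all 3 sets, neuroblast sums climb less steeply, and transport and spiny neuron sums stay level except for low spiny neuron sums in a few libraries.

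Most markers of other cell types did not pass. Over all genes tested, 9.92% were called higher and 10.6% lower, or 8.83% and 9.07% without the libraries apart. With all libraries, none of the 14 oligodendrocyte, 9 oligodendrocyte precursor, 12 microglia, 5 blood, 12 spiny projection neuron, 5 tested D2 neuron, 7 cholinergic or 11 immediate early genes was called in either direction. Without the libraries apart, 3 microglia genes were called lower, C1qb at -0.15, Csf1r at -0.08 and P2ry12 at -0.11, against -0.13, -0.06 and -0.09 with all libraries. So was 1 spiny neuron gene, Rasd2, at -0.10 against -0.05. The spiny neuron list summed to 5114 to 12240 CPM (median 10780) in rich and 1019 to 12470 CPM (median 10610) in poor libraries, and the oligodendrocyte list to medians of 4411 CPM in rich and 4492 CPM in poor libraries. Among 14 astrocyte genes 3 were higher and 2 lower, with Sox9, which ependymal and stem cells share, at 0.21 ± 0.03 and the gap junction gene Gjb6 at -0.22 ± 0.04. Gfap gave 0.18 ± 0.09 and did not pass, but passed at 0.24 without the libraries apart, where 4 astrocyte genes were higher and 3 lower. Of 10 endothelial genes 3 were lower, Flt1 by 0.09 ± 0.02 on the log2 scale. Choroid plexus genes were 5 higher of 13 tested (4 without the libraries apart), with Folr1 at 0.99 ± 0.14 from medians of 0.370 CPM in rich and 0.193 CPM in poor libraries, and Kcnj13 at 0.07 ± 0.04 without passing. The choroid plexus list as a whole summed to medians of 1463 CPM in rich and 1437 CPM in poor libraries. The 49 libraries left out for their Ttr had a median sum of 3176 CPM, so the sum is a coarse measure of choroid plexus. With the marker scores in the model, 2 of the 13 were higher (8.06% of all genes were), with a median of -0.017 against 0.26. Those scores include one made from this same list, next to other tissues, and the part of residual choroid plexus by itself was not tested.

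Markers of position within the striatum differed too, and their part in the other differences was not tested. Crym, which is richer in medial striatum, had 13.5 to 92.8 CPM (median 43.2) in rich libraries and 0.455 to 89.5 CPM (median 34.05) in poor libraries, a difference of 0.42 ± 0.09. Wfs1 and Cartpt, known from the ventral striatum, gave 0.17 ± 0.05 and 0.42 ± 0.14. Cnr1, the cannabinoid receptor that is richest laterally, had 155.3 to 619.5 CPM (median 359.5) in rich libraries and 28.2 to 839 CPM (median 461) in poor libraries, a difference of -0.35 ± 0.07 (edgeR adjusted p = 1.07e-05). Only 14 of 90 rich libraries lay above the poor median of Cnr1. In the middle libraries the slopes of Crym and Cnr1 were 0.05 and 0.05, neither past the threshold. Without the libraries that stood apart Cnr1 gave -0.39 and Crym 0.37, both called, while Wfs1 at 0.09 was no longer called. Of 7 tested genes of D1 neurons 1 was higher and none was lower (20.5% of all genes were called), with a list median of 0.015. The higher one was Pdyn at 0.19 ± 0.07. Without the libraries apart 1 D1 gene was higher and 1 lower. Of 11 GABA interneuron genes 1 was higher and 2 were lower (20.5% of all genes were called), with a list median of 0.0004. The called ones were Calb2 at 0.38 ± 0.13, Pvalb at -0.77 ± 0.16 and Cck at -0.78 ± 0.23. Cck gave -0.67 without female replicate 34 of generation 21.

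The lists with the lowest medians were those of neurons from outside the striatum. Of 10 cortical excitatory neuron genes 6 were lower (10.6% of all genes were), with a median of -0.73. Tbr1 gave -0.77 ± 0.27 and the vesicular glutamate transporter Slc17a7 -0.74 ± 0.27. Summed, the cortical list ran from 19.1 to 702 CPM (median 61.1) in rich and from 19.2 to 867 CPM (median 93.6) in poor libraries, so both groups held libraries at either end. All 7 thalamic genes were lower, with a median of -0.39, but their sum ran from 128.6 to 252.5 CPM (median 184.6) in rich and from 155.2 to 4470 CPM (median 188.1) in poor libraries. Without the libraries that stood apart 1 cortical and 2 thalamic genes were called lower, where 9.07% of all genes were. The cortical median was -0.66 in that fit, close to the -0.73 with all libraries, and the thalamic median was -0.12 against -0.39. Without female replicate 34 of generation 21 alone, 5 cortical and 4 thalamic genes were called lower (10.3% of all genes). For Prkcd the difference was -1.03 ± 0.26 with all libraries and -0.20 without those apart, and for Slc17a6, the thalamic glutamate transporter, -1.18 ± 0.36 and -0.32. Without that single poor library they gave -0.63 and -0.89. The count of higher axoneme genes was 83 of 97 in both of these fits, where 8.83% of all genes were called higher without the libraries apart and 9.7% without that single library. The part of cortical and thalamic tissue in the other lower genes was not tested.

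Some lower genes were called without those libraries as well. Robo3, an axon guidance receptor, had 1.004 to 26.02 CPM (median 5.88) in rich libraries, against 0.248 to 33.3 CPM (median 10.5) in poor libraries. Its difference was -0.89 ± 0.13 (edgeR adjusted p = 6.4e-09), and -0.88 without the libraries apart. Cpne9 gave -0.79 ± 0.14 and -0.53, and the potassium channel gene Kcnc2 -1.02 ± 0.20 and -0.51, with -0.83 for Kcnc2 without female replicate 34 of generation 21 alone. The mitochondrial ribosomal RNA mt-Rnr2 gave -0.80 ± 0.19, with 55.6 to 1162 CPM in rich and 61.5 to 12490 CPM in poor libraries, in libraries made with ribosomal RNA depletion. Without the highest library, male replicate 9 of generation 21, it gave -0.39, still past the threshold. With the marker scores in the model Robo3 gave -0.79, Cpne9 -0.26, Kcnc2 -0.24 and mt-Rnr2 -0.97, all called. With the neuroblast score in the model only mt-Rnr2 was called, and with groups from Ccdc153 all of these genes but mt-Rnr2 were. None of them passed as a slope in the middle libraries. In generation 21 alone all of them passed, in generation 22 alone only Robo3, and in generation 23 alone none.

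The differences were smaller in the later generation labels. The 97 axoneme genes had medians of 0.67 in generation 21, 0.45 in generation 22 and 0.34 in generation 23, with 76, 64 and 48 called higher where 6.71%, 3.84% and 1.18% of all genes were. As a difference of mean log2 CPM, 91 of the 97 were positive in all 3 generations. By the same measure 87 were largest in generation 21, and 75 were smaller in generation 23 than in 22. Foxj1 gave 0.97, 0.67 and 0.61 in the 3 generations. Tmem212 itself, which chose the libraries within each generation, differed by 2.22, 1.56 and 1.39 in mean log2 CPM in the same order. The edgeR fits of single generations, which gave the medians above, put it at 1.97, 1.58 and 1.41. The groups were thus not spaced alike, and the part of that spacing cannot be told apart from the generation. A test of the generation by group interaction called 81 genes (0.379%), 5 of them in the axoneme lists, and a test of the sex by group interaction 3 genes (0.0141%). Without the libraries apart these counts were 3 and 0, and without female replicate 34 of generation 21 alone 23 and 0.

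**Figure D5:**
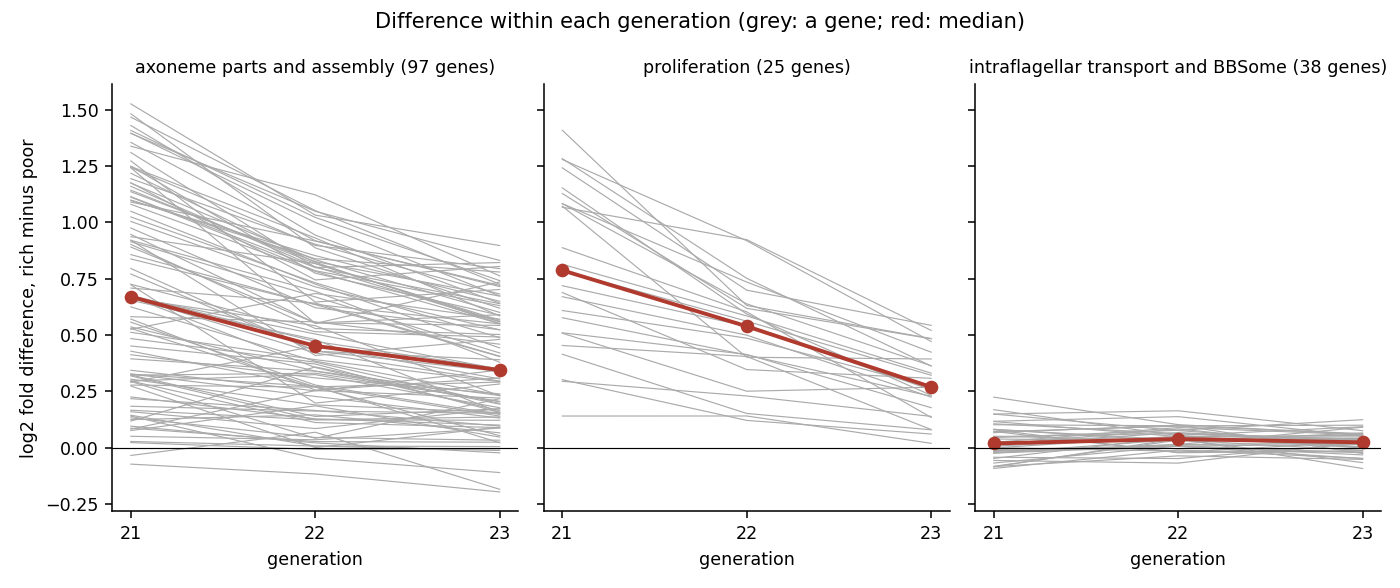
Rich minus poor difference (y axis, log2 fold) within generations 21, 22 and 23 (x axis) of 97 axoneme, 25 proliferation and 38 transport and BBSome genes, with each gene in grey and the median in red. The axoneme median steps down from 0.67 to 0.34 and the transport median stays near 0.

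Tmem212 lies on chromosome 3, and most genes beside it did not share its difference. Of the 10 nearest tested genes on each side, 1 was higher (9.92% of all genes were) and 4 were lower (10.6% of all genes were). The higher one, Ect2, a regulator of cytokinesis, gave 0.61 ± 0.07. The lower ones were Nceh1 and Pld1 at -0.10, Tnik at -0.07 and Eif5a2 at -0.20. Fndc3b, the nearest neighbour on one side, gave -0.02 ± 0.03.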

How the data were processed

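Per the labels' protocols, total RNA of 416 striata was depleted of ribosomal RNA and sequenced as stranded pairs of 100 bp reads. The authors deposited estimated counts for 46517 Ensembl gene IDs; 23.8% of these expected counts are not whole. The aligner, the counting tool and the genome build are not given in the sources used here. Totals ran from 20331813 to 77458299 counts (median 43516366). GENCODE M21 named 98.9% of the IDs. Promoter sequences are RefSeq's (GRCm38.p6).

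Estimated counts were rounded, which moved 0.00502% of the total. edgeR 4.0.16 (R 4.3.3) fitted rich minus poor with labelled sex and generation, TMM factors, a filter with a minimum count of 10, robust quasi-likelihood tests and Benjamini-Hochberg adjustment over all genes tested. limma 3.58.1 voom and DESeq2 1.42.0 were alternatives. The script was tested on simulated data. Libraries were called apart where their median correlation of log2 CPM to other libraries fell over 4 scaled median absolute deviations under its middle value, or their total was under 0.5 of the median.

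The groups and gene lists were chosen with earlier results of these data known. Named genes are up to 6 called members per list by adjusted p, the 30 largest higher and 15 largest lower among called genes whose log2 CPM averaged 0 or more, with one sign in all 3 generations and a symbol other than a Gm, Rik or accession name, interaction genes and the 10 neighbours of Tmem212 on each side; members named without passing the test were picked after their values were seen. Some counted genes are near-identical copies (Dnah7a, Dnah7b and Dnah7c, Spag6 and Spag6l, Rsph3a and Rsph3b, Ttc30a1 and Ttc30b) and are uncertain. No column was left unused.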

Additional observations from a re-analysis of the deposited data

Results flagged for a closer look

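Several genes named in the text differed between rich and poor libraries by an amount that itself differed between generation labels, by edgeR's test of the generation by group interaction with Benjamini-Hochberg adjustment. Among axoneme genes, Dnah9 differed by 1.25, 0.77 and 0.59 on the log2 scale in generations 21, 22 and 23 (adjusted p = 0.0221), and Dnah3 by 1.16, 0.80 and 0.56 (adjusted p = 0.0323). Spag16 differed by 1.482, 0.89 and 0.62 (adjusted p = 0.0378), and Cfap61, of the radial spoke, by 0.92, 0.69 and 0.38 (adjusted p = 0.0173). Maats1, also of the spoke, differed by 0.43, 0.27 and 0.02 (adjusted p = 0.00698), with generation 21 medians of 11.2 CPM in rich and 8.14 CPM in poor libraries and generation 23 medians of 10.2 and 9.88 CPM. The neuroblast gene Igfbpl1 differed by 1.22, 0.74 and 0.32 (adjusted p = 0.0482). Without the libraries that stood apart the adjusted p of these 6 genes lay between 0.0656 and 0.0984, and without female replicate 34 of generation 21 alone only Cfap61 (0.0396) and Maats1 (0.0286) remained past the threshold.

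Thalamic genes were set off in generation 21 as well. Prkcd gave -1.88, 0.06 and -0.57 in the 3 generations (edgeR adjusted p = 0.00596), Slc17a6 -2.60, -0.19 and -0.65 (adjusted p = 0.0365) and Rora -0.71, -0.09 and -0.11 (adjusted p = 0.0257). Without female replicate 34 of generation 21 these adjusted p-values were 0.214, 0.31 and 0.203. Prkcd also differed by labelled sex, with -0.37 in females and -0.04 in males as differences of mean log2 CPM (edgeR adjusted p = 0.011), and 0.254 without that library. The Prkcd medians were close in every generation, for example 5.24 CPM in rich and 5.29 CPM in poor libraries of generation 21.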

How the results depend on the processing

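Of the genes named in the text and tested, 79.4% were called with all libraries. Of these, 85.7% were also called under every alternative checked gene by gene, other than single generations, single sexes, the neuroblast score and the middle libraries. The alternatives with other scaling factors, with other count filters and with a test against a fold of 1.2 were not checked gene by gene. Leaving out each library in turn, by least squares on log2 CPM, reversed the sign of none of the called genes named in the text. Whether they stayed called was not tested there. The higher and lower genes, 9.92% and 10.6% of those tested, made up 1.8% and 0.178% in a test against a fold of 1.2, and 6.15% and 5.9% with no filter, where many more genes with few counts were tested. They made up 6.71% and 4.9% in generation 21 alone, 3.84% and 2.07% in generation 22 alone, 1.18% and 0.162% in generation 23 alone, 5.23% and 3.29% in labelled females and 5.37% and 5.39% in labelled males, where fewer libraries entered. They made up 8.06% and 6.52% with marker scores as covariates, 3.27% and 1.33% with the neuroblast score, and 2.11% and 1.43% over the middle libraries. For the slope over all libraries under 100 CPM of Ttr, 18.7% were lower. The generation interaction, 81 genes, gave 3 without the libraries apart and 23 without female replicate 34 of generation 21 (unadjusted p under 0.05: 1869 and 2053 genes), and the sex interaction, 3 genes by edgeR, gave 0 in both (unadjusted 767 and 992). The causes were not tested. The alternatives without the libraries apart, without female replicate 34 or male replicate 9 of generation 21, and with the neuroblast score were chosen after seeing the data.

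Some named genes changed sign. With the neuroblast score, Rfx3 gave -0.0473, Igfbpl1 -0.00545, Crym -0.0255, Pvalb 0.111, Prkcd 0.305, Slc17a6 0.561, Rora 0.055 and Kcnc2 0.00467. Over the middle libraries, Ruvbl2 gave -0.014, Thbs4 -0.0785, Pdyn -0.0526, Cartpt -0.173 and Cnr1 0.0524. Calb2 gave -0.015 with groups from Ccdc153. Prkcd gave 0.0563 in generation 22, 0.0145 in labelled males, 0.0162 with marker scores and 0.0654 with DESeq2, and Slc17a6 gave 0.133 with marker scores. The marker scores include one made from the thalamic list, and the neuroblast score is made from a list that holds Igfbpl1. Changes of a list's own members in a fit with that list's score are therefore partly built in. The causes were not tested. No paired analysis was possible because replicate numbers only follow accession order. Genes with medians under 1 CPM rest on few counts per library, so their differences have the widest errors.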

Other observations

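The 49 libraries left out for their Ttr level, 145.97 to 14201 CPM with a median of 2637 CPM, entered no comparison. Their Tmem212 ran from 0.0674 to 6.23 CPM with a median of 1.68 CPM, which lies between the medians of the rich and poor libraries. Their summed doublet genes had a median of 71.4 CPM, above the median of 53.8 CPM in rich libraries, and a minimum of 15.1 CPM. Fibroblast and meningeal genes summed to a median of 193.5 CPM in them, against 37.5 CPM in rich and 35.8 CPM in poor libraries. Proliferation genes summed to a median of 105.9 CPM and neuroblast genes to 585 CPM, close to the middle libraries' 106.6 CPM for proliferation and to the poor libraries' 588 CPM for neuroblasts. Choroid plexus epithelium is known to carry cilia of its own. These values were not tested.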
